A study of Mus musculus with 30 samples.

Results

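The interferon-induced proteins with tetratricopeptide repeats form a small gene family that lies in 1 cluster on mouse chromosome 19. Its 5 members studied here are Ifit1, Ifit2, Ifit3, Gm14446 and I830012O16Rik, found by symbol among the 31427 gene symbols of the deposited table. RefSeq calls Gm14446 Ifit1bl1 and I830012O16Rik Ifit3b. All 5 passed the filter for testing. Only Ifit2 reached it in unstimulated cells. The other 4 members passed because of their interferon-treated libraries, so that their presence among the tested genes already depends on a response.

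The cells were DC3.2, a mouse dendritic cell line. Expression was measured by RNA sequencing in 4 genotypes: DKO cells labelled as lacking IRF1 and IRF2, IRF2KO, IRF1KO and WT. The WT libraries are those whose titles read nosg, and in the smaller set below those with no genotype tag. Each genotype received 5000 U/mL IFNα, 2 ng/mL IFNγ or media alone for 2 h, with 2 libraries per group and 24 libraries in all. Sample titles call the cells of these 24 libraries DC32R and those of the smaller set Dc3.2, while the cell line label of both is DC3.2. A further 6 single libraries hold IRF2KO and WT cells after 2 h of IFNα, after 2 h of LPS (a bacterial ligand of TLR4) and at 0 h. Doses in that set are not stated in the sources used here. Library labels of the single mutants among the 24 read IRF1sg and IRF2sg. The labels do not spell out how the lines were made or how many clones each stands for. Nor do they say whether the 2 libraries of a group came from separate cultures. The p-values therefore measure the spread between these libraries, which may be technical. Irf1 RNA does not check the IRF1KO label: it was 27.1 ± 5.0 TPM (transcript share scaled to a fixed total) in IRF1KO cells and 21.1 ± 1.99 TPM in WT cells in media (mean ± SD, n = 2 each). Irf2 RNA was 17.8 ± 0.594 TPM in IRF2KO cells and 24.3 ± 1.22 TPM in WT cells, so that it was still present in the cells labelled as lacking the gene.

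Ifit proteins bind RNA and restrain viruses. Ifit1 holds RNA whose cap lacks the ribose methylation of host messages and blocks its translation. Ifit2 binds AU-rich RNA, and human IFIT3 stabilises IFIT1 in a complex. The genes are classical targets of ISGF3, the transcription factor complex with IRF9 that type I interferon activates at interferon-stimulated response elements (ISREs). Type II interferon acts mainly through GAS elements. IRF1 and IRF2 bind ISRE-like sites. IRF1 is known as an activator, and IRF2 as a repressor of many interferon-responsive genes and an activator of others.

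On GRCm38 the cluster runs from Ifit2 (chr19:34550550-34576534, plus strand, 3 exons) through Ifit3 (chr19:34583119-34588982, plus strand, 2 exons) to Ifit1 (chr19:34640889-34650009, plus strand, 2 exons). I830012O16Rik (chr19:34607530-34613403, plus strand) lies within the span that RefSeq gives Gm14446 (chr19:34592888-34662981, minus strand), which also covers Ifit1. The coding sequences of I830012O16Rik and Ifit3 are 99.09% identical over 1209 bases, and 51.2% of the 50-base windows of the Ifit3 transcript occur in that of I830012O16Rik. Reads of the 2 genes can therefore be divided between them wrongly, and their separate levels are uncertain. Gm14446 and Ifit1 are 74.1% identical, and 0.61% of the 50-base windows of Ifit1 occur in Gm14446. The other pairs are 51.9% to 56.5% identical and share no window. Whether the library kit and the counting kept strand is not given in the sources used here, so reads where Gm14446 overlaps Ifit1 or I830012O16Rik cannot be assigned with certainty.

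The promoters were searched on both strands for the ISRE core, GAAA followed after 2 free bases by GAAA, and for the GAS motif TTCNNNGAA. The search used RefSeq windows on GRCm38.p6, from 250 bases before to 50 bases after each start site that has a window. Except for Ifit1, these start sites do not lie where the gene span given above begins on its strand. Other annotated starts may therefore have gone unsearched. The ISRE core occurs in 3.44% and the GAS motif in 8.30% of all 32851 such windows, and 0.225% hold the ISRE core at least 2 times. These stretches are shown because 4 of the 5 members hold ISRE cores close to a start site while the Ifit2 windows hold none. Capitals mark the ISRE core, and each stretch is written along its gene's own strand.
Ifit1, chr19:34640765-34640833, plus strand: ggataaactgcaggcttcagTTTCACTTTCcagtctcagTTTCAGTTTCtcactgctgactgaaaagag
Ifit3, chr19:34583353-34583436, plus strand: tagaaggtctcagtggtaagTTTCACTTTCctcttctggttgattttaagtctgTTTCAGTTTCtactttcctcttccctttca
I830012O16Rik, chr19:34607749-34607832, plus strand: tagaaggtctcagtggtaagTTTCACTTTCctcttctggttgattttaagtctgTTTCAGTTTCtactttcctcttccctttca
Gm14446, first start site, chr19:34599421-34599470, minus strand: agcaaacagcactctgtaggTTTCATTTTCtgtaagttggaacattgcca
Gm14446, second start site, chr19:34602043-34602092, minus strand: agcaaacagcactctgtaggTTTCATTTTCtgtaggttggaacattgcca
Ifit2, first start site, chr19:34550594-34550693, plus strand: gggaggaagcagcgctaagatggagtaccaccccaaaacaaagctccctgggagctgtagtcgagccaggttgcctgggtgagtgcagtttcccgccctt
Ifit1 has its 2 matches at −104 to −95 and −85 to −76 relative to the start site. In Ifit3 they lie at −156 to −147 and −122 to −113, and in I830012O16Rik at −188 to −179 and −154 to −145. Those 2 genes share the whole 84-base stretch. Gm14446 has 1 match at each of 2 start sites, at −23 to −14 and at −104 to −95. Neither of the 2 Ifit2 start sites searched has an ISRE core within the window, and the first has a GAS motif at −241 to −233. These matches describe letters, not bound sites. An absent match speaks only for this exact core within these windows, as sequence beyond them and looser matches were not searched.

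Unstimulated cells contained little Ifit RNA. The summed level of the 5 genes in media was 4.21 ± 0.332 TPM in DKO, 4.66 ± 0.516 TPM in IRF2KO, 4.33 ± 0.375 TPM in IRF1KO and 4.57 ± 0.240 TPM in WT cells. Ifit2 supplied between 78.9% (IRF2KO) and 96.0% (IRF1KO) of that sum. Its own level lay between 3.2 and 4.55 TPM in all 8 media libraries. The other 4 members lay between 0 and 0.55 TPM. No mutant was called different from WT for any member in media, where a call means an adjusted p under 0.05 in limma on log2(TPM + 1). The call rates over all 11842 tested genes, either way, were 0.760% for DKO, 0.836% for IRF2KO and 0% for IRF1KO. No member reached an unadjusted p under 0.05 in these 3 comparisons, and the 15 differences ran from −0.20 to 0.45 on the log2 scale. The largest, 0.45 ± 0.23 for Ifit1 in IRF2KO cells, stood for 0.45 and 0.55 TPM in IRF2KO libraries against 0.14 and 0.05 TPM in WT libraries.

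**Figure D1:**
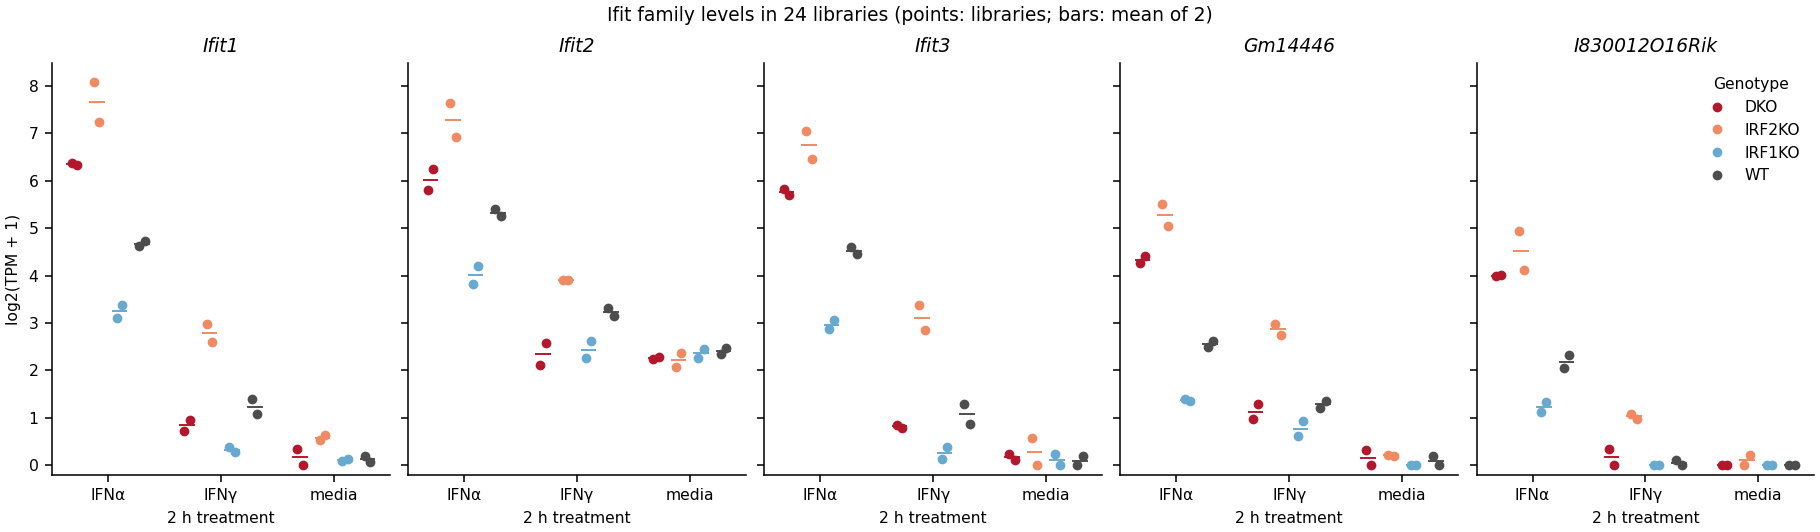
Level of each Ifit gene in the 24 replicated libraries as log2(TPM + 1), by treatment and genotype. Points are libraries and bars are means of 2. Under IFNα the IRF2KO libraries lie highest and the IRF1KO libraries lowest for all 5 genes; in media Ifit2 alone is well above 0.

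IFNα raised all 5 genes in all 4 genotypes. In the groups with the highest response, Ifit1 reached 269.48 and 150.39 TPM in IRF2KO cells under IFNα, against 0.45 and 0.55 TPM in the same cells in media. In WT cells it reached 23.75 and 25.5 TPM under IFNα, against 0.14 and 0.05 TPM in media. The log2 differences between IFNα and media for Ifit1 were 6.19 in DKO, 7.08 in IRF2KO, 3.13 in IRF1KO and 4.55 in WT cells. The SE of a difference between 2 groups was the same for every pair of groups: 0.23 for Ifit1, 0.23 for Ifit2, 0.24 for Ifit3, 0.19 for Gm14446 and 0.22 for I830012O16Rik. These differences are on the log2(TPM + 1) scale, which understates changes of genes near 0. Ifit2, which starts from a higher level, changed by 3.76, 5.06, 1.65 and 2.92 in DKO, IRF2KO, IRF1KO and WT cells. Ifit3 changed by 5.60, 6.47, 2.85 and 4.44 in the same order of genotypes. Gm14446 changed by 4.18, 5.07, 1.38 and 2.45, and I830012O16Rik by 4.0, 4.42, 1.23 and 2.19. The members were called higher in 5 of 5 cases in each genotype, where 0.971% (DKO), 1.38% (IRF2KO), 0.811% (IRF1KO) and 1.04% (WT) of tested genes were called higher. For 4 members this count follows in part from the filter described above. The highest adjusted p among the 20 differences was 0.00624 (limma), for I830012O16Rik in IRF1KO cells. Of the 4 fits that left out 1 of its libraries, only that without IRF1KO IFNα replicate 1 kept this call; the others gave 1.12 to 1.23 and an adjusted p of up to 0.118. With a pseudocount of 5 it was lost too, as was that of Gm14446 in IRF1KO cells (0.40, adjusted p = 0.164, limma).

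**Figure D2:**
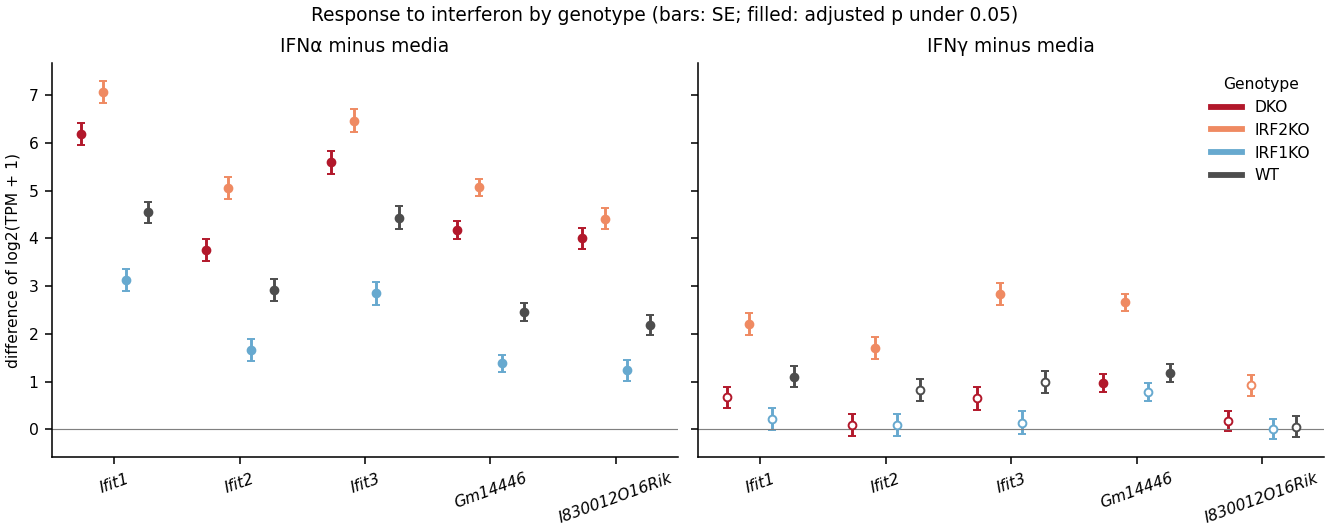
Difference of log2(TPM + 1) between interferon and media for each member and genotype, IFNα on the left and IFNγ on the right. Bars are SE and filled points have an adjusted p under 0.05. All 20 differences are called under IFNα, where IRF2KO lies highest and IRF1KO lowest for every member, and 7 of 20 under IFNγ.

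IFNγ gave a smaller response that was largest in IRF2KO cells. There Ifit1 reached 6.87 and 5.06 TPM, Ifit3 9.46 and 6.19 TPM, Gm14446 6.92 and 5.72 TPM, and Ifit2 14.07 and 14.09 TPM. Those 4 genes rose over IRF2KO media by 2.2, 2.83, 2.66 and 1.70. I830012O16Rik reached 1.12 and 0.97 TPM, with a difference of 0.92 (adjusted p = 0.0561, limma, and 0.0384 when replicate number entered the model as a block). In WT cells Ifit1 rose by 1.10 (adjusted p = 0.0178, limma) to 1.62 and 1.11 TPM, and Gm14446 by 1.18 (adjusted p = 0.00166, limma) to 1.32 and 1.56 TPM. Of the 4 fits without 1 library, only that without WT IFNγ replicate 2 kept the call of Ifit1 in WT cells, and the others gave 0.95 to 1.16 (adjusted p up to 0.253, limma). With a pseudocount of 5 the calls of Ifit1 and Gm14446 in WT cells were lost, at 0.32 and 0.34. Ifit3 in WT cells had a difference of 0.99 (adjusted p = 0.0598, limma, and 0.0185 with the block), and Ifit2 one of 0.82 (adjusted p = 0.149, limma). In DKO cells Gm14446 alone was called, with 0.97 and 1.44 TPM under IFNγ against 0.25 and 0 TPM in media. Its log2 difference was 0.97 (adjusted p = 0.0159, limma), and the call was lost without replicate 2 of the DKO IFNγ libraries (0.82, adjusted p = 0.117) or of the DKO media libraries (0.81, adjusted p = 0.276). The called members numbered 1 of 5 in DKO, 4 of 5 in IRF2KO, 0 of 5 in IRF1KO and 2 of 5 in WT cells, where 0.701%, 1.04%, 1.10% and 1.20% of tested genes were called higher. Every member but Ifit2 passed the filter because of its interferon-treated libraries, so these counts are not independent of a response. In IRF1KO cells 1 member, Gm14446, had an unadjusted p under 0.05, and its difference was 0.77 (adjusted p = 0.0605, limma, and 0.0476 with the block). Ifit2 in IRF1KO cells had 3.82 and 5.12 TPM under IFNγ, against 3.81 and 4.49 TPM in media, and these ranges overlap.

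Set against IFNα directly, IFNγ gave lower mean levels in all 20 cases, of which 19 were called. All 5 members were called in DKO, IRF2KO and WT cells and 4 of 5 in IRF1KO cells, where 0.625%, 0.583%, 0.355% and 0.414% of tested genes were called lower. For 4 members these counts follow in part from the filter, which they passed because of their interferon-treated libraries. The log2 differences ran from −5.52 (Ifit1 in DKO cells) to −1.23 (I830012O16Rik in IRF1KO cells) among those called. Gm14446 in IRF1KO cells differed by −0.60 (adjusted p = 0.300, limma), with 0.54 and 0.90 TPM under IFNγ against 1.63 and 1.57 TPM under IFNα. The call of I830012O16Rik in IRF1KO cells held in 1 of 4 fits, that without IRF1KO IFNα replicate 1, and was lost in the others (adjusted p up to 0.106, limma). That of Gm14446 in WT cells was lost with a pseudocount of 0.1 (−1.69, adjusted p = 0.257, limma). In WT cells the summed level was 12.4 ± 1.5 TPM under IFNγ and 94.5 ± 2.48 TPM under IFNα.

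In IRF2KO cells the Ifit genes stood far above WT under IFNα. Ifit1 had 269.48 and 150.39 TPM in IRF2KO libraries, against 23.75 and 25.5 TPM in WT libraries, a ratio of means of 8.53. Ifit2 had 198.31 and 120.45 TPM in IRF2KO libraries, against 41.45 and 37.13 TPM in WT libraries, a ratio of 4.06. For these genes both IRF2KO libraries lay above both WT libraries, and replicate 1 of the IRF2KO group was higher than replicate 2. Ifit3 had 132.25 and 86.81 TPM in IRF2KO libraries, against 23.3 and 21 TPM in WT libraries. Gm14446 had 44.71 and 31.98 TPM in IRF2KO libraries, against 4.61 and 5.14 TPM in WT libraries. I830012O16Rik had 29.69 and 16.37 TPM in IRF2KO libraries, against 3.15 and 3.99 TPM in WT libraries. The groups did not overlap for any member, and both IRF2KO libraries lay above both WT libraries for 20.7% of tested genes. The log2 differences were 2.98 for Ifit1, 1.95 for Ifit2, 2.23 for Ifit3, 2.73 for Gm14446 and 2.34 for I830012O16Rik, and all 5 were called (adjusted p from 2.18e-07 to 0.000136, limma), where 0.625% of tested genes were called higher. The summed level of the family was 540 ± 190 TPM in IRF2KO cells and 94.5 ± 2.48 TPM in WT cells. With a pseudocount of 0.1 the calls of Ifit3 (adjusted p = 0.208) and I830012O16Rik (adjusted p = 0.0529) were lost, with differences of 2.27 and 2.60 (limma).

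In IRF1KO cells 4 of the 5 members were called lower than in WT under IFNα. Ifit1 had 7.66 and 9.44 TPM in IRF1KO libraries, against 23.75 and 25.5 TPM in WT libraries, a ratio of means of 0.347. Ifit3 had 6.30 and 7.37 TPM in IRF1KO libraries, against 23.3 and 21 TPM in WT libraries. Ifit2 had 13.19 and 17.44 TPM in IRF1KO libraries, against 41.45 and 37.13 TPM in WT libraries. All 5 members had both IRF1KO libraries below both WT libraries, as did 10% of tested genes. Ifit1 fell by 1.43 on the log2 scale, Ifit2 by 1.31, Ifit3 by 1.56 and Gm14446 by 1.17 (adjusted p from 0.00815 to 0.0222, limma). I830012O16Rik, at 1.17 and 1.54 TPM in IRF1KO libraries against 3.15 and 3.99 TPM in WT libraries, had a difference of −0.95 (adjusted p = 0.190, limma). Thus 4 of 5 members were called lower, where 0.177% of tested genes were. Each of the 4 calls was lost whichever of the 4 libraries was left out, with differences from −1.66 to −1.11 and adjusted p from 0.0535 to 0.630 (limma). With a pseudocount of 0.1 the differences of Ifit1, Ifit3 and Gm14446 were −1.52, −1.68 and −1.55 and were not called.

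Cells labelled as lacking both factors had mean Ifit levels between those of IRF2KO and WT cells under IFNα. Ifit1 had 82.26 and 80.06 TPM in DKO libraries, against 23.75 and 25.5 TPM in WT libraries, a ratio of means of 3.30. Gm14446 had 18.3 and 20.2 TPM in DKO libraries, against 4.61 and 5.14 TPM in WT libraries. I830012O16Rik had 14.94 and 15.14 TPM in DKO libraries, against 3.15 and 3.99 TPM in WT libraries. In each case both DKO libraries exceeded both WT libraries, as they did for 18.6% of tested genes. Ifit3 had 56.23 and 51.37 TPM in DKO libraries, against 23.3 and 21 TPM in WT libraries. Ifit2 had 54.74 and 75.4 TPM in DKO libraries, against 41.45 and 37.13 TPM in WT libraries, also without overlap. The log2 differences were 1.68 for Ifit1, 1.24 for Ifit3, 1.79 for Gm14446 and 1.82 for I830012O16Rik (adjusted p from 2.86e-05 to 0.0128, limma). That of Ifit2 was 0.70 (adjusted p = 0.280, limma). So 4 of 5 members were called higher, where 0.363% of tested genes were. The call of Ifit3 was lost in each of 4 fits without 1 library, with adjusted p from 0.0679 to 0.168 (limma). None of the 4 calls held with a pseudocount of 0.1, at differences of 1.72, 1.28, 1.96 and 2.05 for Ifit1, Ifit3, Gm14446 and I830012O16Rik; 5 of 5 members had an unadjusted p under 0.05 in the fit with a pseudocount of 1.

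**Figure D3:**
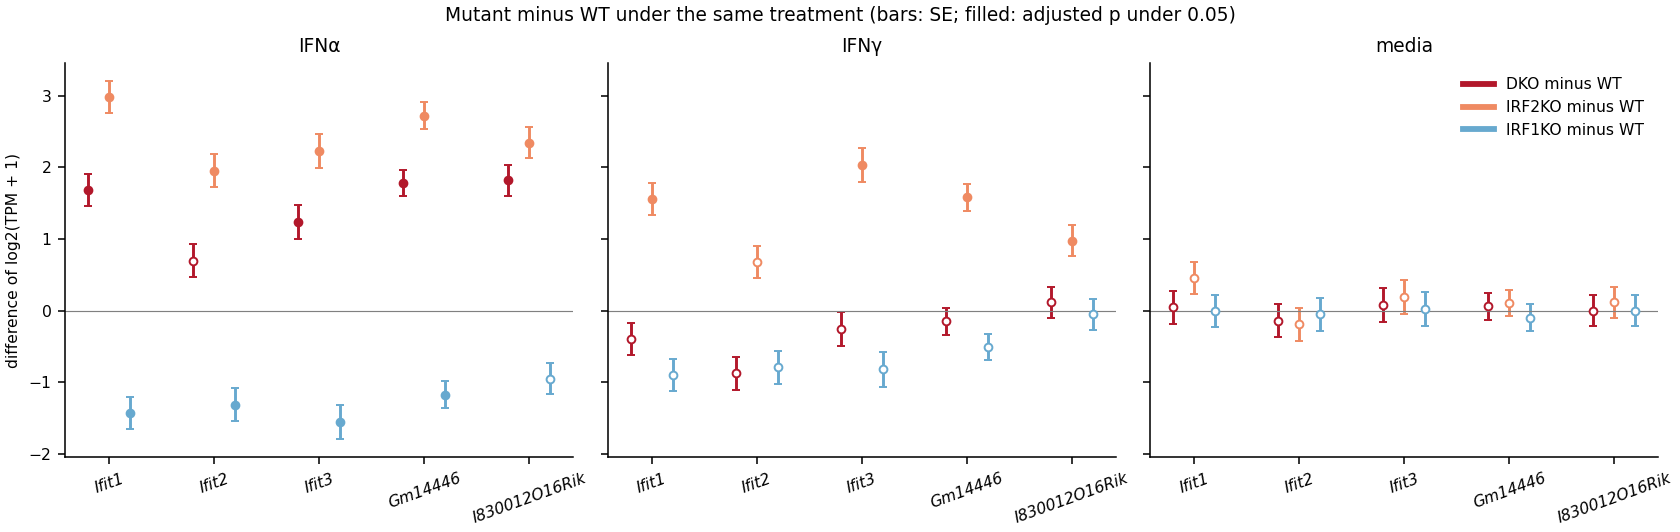
Difference of log2(TPM + 1) between each mutant and WT under the same treatment, for IFNα, IFNγ and media. Bars are SE and filled points have an adjusted p under 0.05. Under IFNα the IRF2KO and DKO points lie above 0 and the IRF1KO points below it; in media none is called.

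Under IFNγ the IRF2KO cells alone were called higher than WT. Ifit1 had 6.87 and 5.06 TPM in IRF2KO libraries, against 1.62 and 1.11 TPM in WT libraries. Ifit3 had 9.46 and 6.19 TPM in IRF2KO libraries, against 1.45 and 0.83 TPM in WT libraries. Gm14446 had 6.92 and 5.72 TPM in IRF2KO libraries, against 1.32 and 1.56 TPM in WT libraries. None of these groups overlapped, and both IRF2KO libraries lay above both WT libraries for 15.1% of tested genes. The log2 differences were 1.55 for Ifit1, 2.03 for Ifit3, 1.58 for Gm14446 and 0.98 for I830012O16Rik (adjusted p from 0.000171 to 0.0489, limma), while Ifit2 differed by 0.68 (adjusted p = 0.326, limma). Thus 4 of 5 members were called, where 0.312% of tested genes were called higher. I830012O16Rik, at 1.12 and 0.97 TPM in IRF2KO libraries against 0.08 and 0 TPM in WT libraries, lost its call in each of 4 fits without 1 library (adjusted p from 0.195 to 0.331, limma). With a pseudocount of 0.1 the calls of Ifit1, Ifit3 and Gm14446 were lost (adjusted p = 0.0630, 0.103 and 0.0885, limma), at differences of 2.06, 2.69 and 2.06. How many reads stand behind levels this low cannot be had from TPM.

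In DKO and IRF1KO cells no member was called different from WT under IFNγ. Ifit2 had 3.36 and 5.02 TPM in DKO libraries and 3.82 and 5.12 TPM in IRF1KO libraries, against 9.02 and 7.87 TPM in WT libraries. Its difference from WT was −0.88 in DKO cells (adjusted p = 0.0914, limma, and 0.0440 with the block) and −0.80 in IRF1KO cells (adjusted p = 0.621, limma). Both mutant libraries lay below both WT libraries for 3 of 5 members in DKO and 4 of 5 in IRF1KO cells, Ifit2 among them in each. The same held for 14.9% (DKO) and 11.3% (IRF1KO) of tested genes. Over the 5 members the differences ran from −0.88 to 0.12 in DKO and from −0.90 to −0.06 in IRF1KO cells. The called members were 0 of 5 in both, where 1.02% (DKO) and 0.236% (IRF1KO) of tested genes were called lower. An unadjusted p under 0.05 was reached by 1 member in DKO and by 4 in IRF1KO cells.

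All 5 members had lower mean levels in DKO than in IRF2KO cells under either interferon, and 3 were called under IFNα and 4 under IFNγ. Under IFNα the DKO minus IRF2KO differences were −1.30 for Ifit1, −1.25 for Ifit2 and −0.94 for Gm14446 (adjusted p from 0.0118 to 0.0333, limma). Ifit3 differed by −0.98 (adjusted p = 0.170, limma) and I830012O16Rik by −0.53. Thus 3 of 5 members were called, where 0.363% of tested genes were called lower. All 3 calls were lost without replicate 1 of the IRF2KO libraries under IFNα, which holds the highest level of every member: Ifit1 then differed by −0.88, Ifit2 by −0.90 and Gm14446 by −0.71. Leaving out DKO replicate 1 also ended all 3 calls, and leaving out DKO replicate 2 those of Ifit1 and Gm14446. Ifit1 (−1.31) and Gm14446 (−0.97) were not called with a pseudocount of 0.1. Under IFNγ the DKO minus IRF2KO differences were −1.95 for Ifit1, −1.56 for Ifit2, −2.30 for Ifit3 and −1.73 for Gm14446 (adjusted p from 4.44e-05 to 0.00221, limma), and −0.86 for I830012O16Rik (adjusted p = 0.183, limma). Here 4 of 5 members were called, where 0.464% of tested genes were called lower, and those 4 calls stood in each of the 4 fits without 1 of these libraries. At a pseudocount of 0.1 Ifit3 (−3.17) and Gm14446 (−2.32) were not called (adjusted p = 0.0575 each, limma). In media 0 of 5 members were called, where 0.118% of tested genes were called either way, and 0 reached an unadjusted p under 0.05.

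Against IRF1KO cells, DKO cells had higher levels under IFNα. Ifit1 had 82.26 and 80.06 TPM in DKO libraries, against 7.66 and 9.44 TPM in IRF1KO libraries. Gm14446 had 18.3 and 20.2 TPM in DKO libraries, against 1.63 and 1.57 TPM in IRF1KO libraries. The log2 differences were 3.11 for Ifit1, 2.01 for Ifit2, 2.81 for Ifit3, 2.96 for Gm14446 and 2.77 for I830012O16Rik. All 5 were called (adjusted p from 8.78e-08 to 7.33e-05, limma), where 0.372% of tested genes were called higher. That of Ifit3 was 2.96 with a pseudocount of 0.1 and was not called (adjusted p = 0.0589, limma). Under IFNγ 0 of 5 were called, where 0.270% of tested genes were called higher, and 2 had an unadjusted p under 0.05. The IFNγ differences ran from −0.08 for Ifit2 to 0.56 for Ifit3. In media 0 of 5 were called, where 0.667% of tested genes were called either way, and 0 reached an unadjusted p under 0.05.

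The size of the IFNα response itself was compared between mutants and WT as an interaction. The response of IRF2KO cells exceeded that of WT cells by 2.53 for Ifit1, 2.15 for Ifit2, 2.04 for Ifit3, 2.62 for Gm14446 and 2.23 for I830012O16Rik. The SE of these differences of differences was 0.32, 0.33, 0.34, 0.26 and 0.31. All 5 were called (adjusted p from 0.000227 to 0.0327, limma), where 8 genes, or 0.0676% of those tested, were called higher. The response of DKO cells exceeded that of WT cells by 1.73 for Gm14446 (adjusted p = 0.0152, limma) and 1.82 for I830012O16Rik (adjusted p = 0.0308, limma). For Ifit1 it exceeded WT by 1.64 (adjusted p = 0.115, limma), and Ifit2 and Ifit3 had 0.84 and 1.16. So 2 of 5 were called in DKO cells, where 0.0507% of tested genes were called higher. In IRF1KO cells the response differed from that of WT by −1.59 to −0.95, with 0 of 5 called, where 0.0253% of tested genes were called lower, and 5 with an unadjusted p under 0.05. None of the 7 called interactions held with a pseudocount of 0.1, and the IRF2KO minus WT differences of response were 1.37, 2.22, 1.63, 2.24 and 1.89 for Ifit1, Ifit2, Ifit3, Gm14446 and I830012O16Rik. Left out singly, 6 of the 8 libraries involved ended the IRF2KO calls of Ifit2 (1.79 to 2.22) and 6 that of Ifit3 (1.74 to 2.13), and WT IFNα replicate 1 that of I830012O16Rik (2.10, adjusted p = 0.0570, limma). In DKO cells the call of Gm14446 held in 1 of 8 such fits and that of I830012O16Rik in none. These interactions rest on media levels close to 0 for every member but Ifit2. The members other than Ifit2 also passed the filter because of their interferon-treated libraries, so the counts are not independent of a response.

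For IFNγ no member's response was called different from that of WT. Called members were 0 of 5 in DKO, IRF2KO and IRF1KO cells, where 0.0929% (lower), 0.00844% (higher) and 0.0844% (lower) of tested genes were called. An unadjusted p under 0.05 was reached by 1, 5 and 3 members. Ifit3 had the largest excess in IRF2KO cells, 1.85 ± 0.34 (adjusted p = 0.112, limma, and 0.0330 with the block), and Gm14446 had 1.47 ± 0.26 (adjusted p = 0.103, limma, and 0.0354 after median-ratio scaling). Whether the loss of IRF1 changes the genes by a different amount without IRF2 than with it was also compared: (DKO minus IRF2KO) minus (IRF1KO minus WT). It was called for 0 of 5 members (limma) under IFNα, under IFNγ and in media, where 0.0169%, 0.0422% and 0.0169% of tested genes were called either way. Under IFNγ these differences ran from −1.47 (Ifit3) to −0.76 (Ifit2), and 5 members had an unadjusted p under 0.05. Under IFNα they ran from 0.06 to 0.58, and neither there nor in media was an unadjusted p under 0.05 reached.

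The shares of Ifit1 and Ifit2 in the family's total were not the same in all genotypes. Under IFNα the level of Ifit1 divided by that of Ifit2 lay between 1.06 and 1.5 in DKO, 1.25 and 1.36 in IRF2KO, 0.541 and 0.581 in IRF1KO, and 0.573 and 0.687 in WT libraries. Ifit1 was thus above Ifit2 in each of the 4 libraries labelled as lacking IRF2 and below it in each of the other 4 replicated libraries. The single libraries under IFNα did not show that split: Ifit1 had 650.23 TPM and Ifit2 320.68 TPM in IRF2KO, and Ifit1 also exceeded Ifit2 in WT, at 74.33 and 63.75 TPM. No test was made of these ratios. Ifit1 supplied 34.6% of the family's TPM in DKO, 38.9% in IRF2KO, 25.4% in IRF1KO and 26.1% in WT cells under IFNα, while Ifit3 supplied 20.3% to 23.4% in all 4 genotypes. Under IFNγ Ifit2 was the largest component, with 59.1% in DKO, 40.0% in IRF2KO, 79.1% in IRF1KO and 67.9% in WT cells. Gm14446 supplied 17%, 17.9%, 12.7% and 11.6% under IFNγ in the same order, more than the 4.75% to 8.22% it supplied under IFNα.

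**Figure D4:**
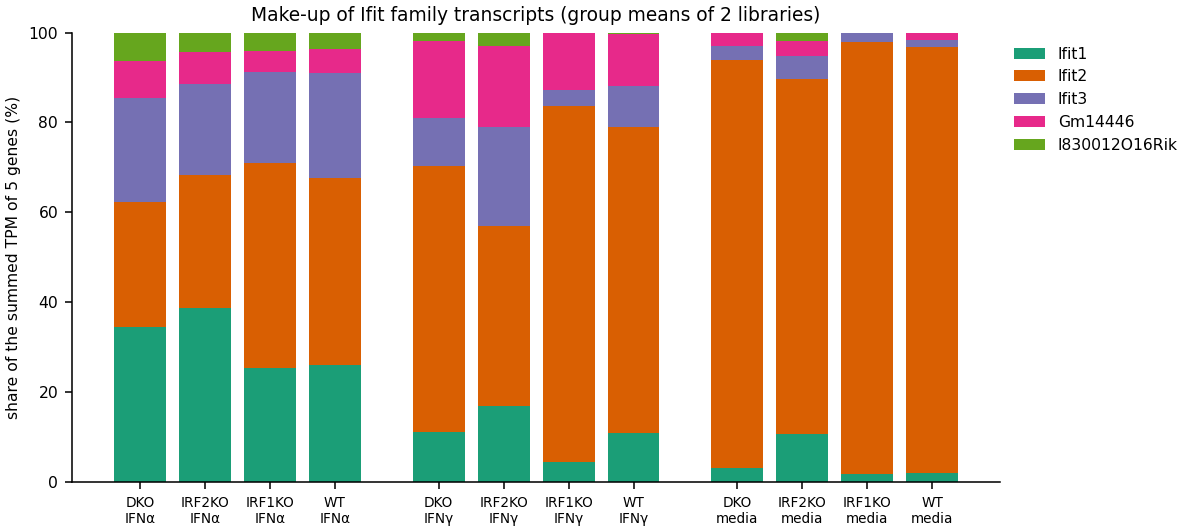
Share of each member in the summed TPM of the 5 genes, by treatment and genotype, from group means of 2 libraries (no error is drawn). Ifit2 supplies most of the media sum; under IFNα the Ifit1 share is 34.6% in DKO and 38.9% in IRF2KO cells, against 25.4% in IRF1KO and 26.1% in WT cells.

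Over the 12 group means the members followed each other closely, with Pearson r from 0.947 to 0.996 on log2(TPM + 1). These values describe 12 points that share libraries and a strong IFNα effect, and carry no test. Among 9335 other genes, Bst2 had the highest r with Ifit1 (0.986), Ifit2 (0.968) and Ifit3 (0.976), Zcchc2 with Gm14446 (0.964) and Mx2 with I830012O16Rik (0.982). The next nearest genes were Mx2, Cmpk2 and Tor3a for Ifit1, and Mx1, Zcchc2 and Cmpk2 for Ifit2. For Ifit3 they were Mx2, Zcchc2 and Tor3a, for Gm14446 Parp10, Cmpk2 and Bst2, and for I830012O16Rik Bst2, Mx1 and Tor1aip1. Bst2, at 290 TPM in IRF2KO and 197 TPM in WT cells under IFNα, differed less between these genotypes than Cmpk2, at 241 and 14.4 TPM in IRF2KO and WT cells.

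Some genes of the interferon signalling pathway rose under IFNα, and none of those tested was called between a mutant and WT there. Of 16 tested receptor, kinase, STAT, IRF and feedback genes, 6 rose under IFNα in WT cells, among them Usp18, which damps receptor signalling (4.54 ± 0.22), Irf7 (4.36 ± 0.21), Irf9 (2.86 ± 0.14), Irf1 (3.03 ± 0.17) and Stat2 (2.61 ± 0.26). Under IFNα 0 of the 16 were called between DKO, IRF2KO or IRF1KO cells and WT (limma), and 4, 4 and 1 had an unadjusted p under 0.05. The IRF2KO minus WT differences under IFNα were −0.18 ± 0.21 for Irf7, 0.08 ± 0.14 for Irf9 and 0.14 ± 0.26 for Stat2. Of the 2 feedback inhibitors, named here after their values were seen, Usp18 had 103 TPM in DKO and 128 TPM in IRF2KO, against 74.2 TPM in WT cells. Its differences from WT were 0.47 ± 0.22 in DKO and 0.77 ± 0.22 in IRF2KO cells (adjusted p = 0.563 and 0.154, limma). Socs1 had 122 TPM in DKO and 147 TPM in IRF2KO, against 43.3 TPM in WT cells, with differences of 1.64 ± 0.89 and 1.97 ± 0.89 (adjusted p = 0.685 and 0.521, limma). Irf7 had 33.0 ± 8.22 TPM in DKO, 31.2 ± 6.69 TPM in IRF2KO, 34.1 ± 3.42 TPM in IRF1KO and 35.1 ± 1.11 TPM in WT cells. Of 8 listed interferon genes, all were at 0 in every replicated library except Ifnb1, which averaged 0.455 TPM in IRF2KO cells under IFNα. Under IFNγ 3 of the 16 signalling genes were called lower in DKO than in WT cells, Usp18 (−1.29 ± 0.22), Irf2 (−0.69 ± 0.14) and Stat2 (−1.21 ± 0.26), and 0 higher.

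Other interferon-induced genes were not all higher without IRF2. Of 17 tested RNA-binding and RNA-sensing genes, 12 rose under IFNα in WT cells, and those with the smallest p were Oasl2 (3.42 ± 0.16), Oasl1 (3.19 ± 0.16), Ddx58 (2.65 ± 0.19) and Oas2 (3.39 ± 0.35). In IRF2KO against WT cells under IFNα 4 of the 17 were lower and 0 higher: Ifih1, the RNA sensor MDA5 (−2.27 ± 0.15), Oasl2 (−0.94 ± 0.16), Dhx58 (−1.09 ± 0.19) and Mov10 (−0.87 ± 0.19). Over all tested genes 115 were called either way in that comparison, 74 of them higher. In media these 4 genes also had lower means in IRF2KO than in WT cells. Ifih1 had 0.085 and 3.49 TPM, Oasl2 0.075 and 0.345 TPM, Dhx58 0.93 and 3.125 TPM, and Mov10 5.075 and 16.22 TPM. The lower means of Ifih1, Dhx58 and Mov10 were thus not limited to IFNα. Both media means of Oasl2 lie below 1 TPM, so its lower level in media is uncertain. No test is given for these media means. In DKO against WT cells under IFNα 6 of the 17 were lower and 0 higher. Over all tested genes 124 were called either way there, 43 of them higher. In IRF1KO against WT cells Oasl2 alone of the 17 was lower (−1.0 ± 0.16). The median IRF2KO minus WT difference of the 17 was −0.26, against 0.06 over all tested genes and 2.34 over the 5 Ifit genes. Of 17 tested effectors of other kinds, 11 rose under IFNα in WT cells, and those with the smallest p were Rtp4 (5.99 ± 0.25), Cmpk2 (3.85 ± 0.24), Parp14 (3.14 ± 0.20) and Mx2 (2.71 ± 0.19). In IRF2KO against WT cells 6 of these were higher and 1 lower. Rsad2, the antiviral enzyme viperin (5.17 ± 0.22), Cmpk2, a mitochondrial nucleotide kinase (3.95 ± 0.24), Mx2 (1.78 ± 0.19) and Herc6 (1.57 ± 0.23) had the smallest p among the higher ones, and Parp14 was the lower one (−0.93 ± 0.20). In DKO against WT cells 2 were higher, Rsad2 (2.87 ± 0.22) and Mx2 (1.74 ± 0.19), and 3 lower. Only Cmpk2 was called lower in IRF1KO than in WT cells (−1.83 ± 0.24), and 0 were higher.

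Genes beside the cluster were mostly not called. Of 8 listed neighbours, 5 were tested, and 0 were called between IFNα and media in WT cells, where 0 had an unadjusted p under 0.05. The IFNα minus media differences in WT cells were 0.12 ± 0.13 for Stambpl1, 0.40 ± 0.27 for Fas, 0.00 ± 0.39 for Lipa, −0.09 ± 0.15 for Kif20b and −0.10 ± 0.18 for Pank1. Fas, the death receptor, was called higher under IFNγ than in media in WT cells (1.20 ± 0.27) and in DKO than in WT cells under IFNα (1.21 ± 0.27), where the call of Fas had an adjusted p of 0.0457 (limma). None of the 5 was called between IRF2KO and WT cells under IFNα, and 1 had an unadjusted p under 0.05.

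The 6 single libraries hold 1 library per condition, and only 6283 of the 41346 table entries have values in both sets, so that levels are compared within this set only and with no test. Ifit1 had 650.23 TPM in the IRF2KO library and 74.33 TPM in the WT library under IFNα. Ifit2 had 320.68 and 63.75 TPM, Ifit3 362.2 and 58.89 TPM, Gm14446 148.69 and 25.07 TPM, and I830012O16Rik 65.51 and 7.93 TPM in the IRF2KO and WT libraries under IFNα. All 5 were higher in the IRF2KO library, by 2.31 (Ifit2) to 3.11 (Ifit1) on the log2 scale. At least 1 log2 unit higher were 5 of 5 members, against 0.720% of the 10410 genes compared. IFNα over 0 h passed that size for 5 of 5 members in the IRF2KO and 5 of 5 in the WT library, where 1.81% and 1.60% of genes did.

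Under LPS the members had unlike levels. In the IRF2KO library Ifit1 had 42.74 TPM under LPS and 5.64 TPM at 0 h, while the WT library had 2.97 TPM under LPS and 1.71 TPM at 0 h. Between genotypes under LPS the ratio for Ifit1, IRF2KO over WT, was 14.4. Ifit2 was lower under LPS in both genotypes, at 5.56 TPM against 10.32 TPM at 0 h in IRF2KO and 3.27 TPM against 6.30 TPM at 0 h in WT. Gm14446 was also lower, at 0.17 TPM under LPS against 1.99 TPM at 0 h in IRF2KO and 0.07 TPM against 0.84 TPM in WT. Ifit3 and I830012O16Rik stayed at or below 1.44 TPM under LPS in both. With LPS over 0 h in IRF2KO, 1 member was higher by 1 log2 unit or more and 1 lower, where 2.40% and 1.88% of genes were; in WT no member passed that size, where 2.19% were higher and 0.893% lower. At 0 h Ifit1 had 5.64 TPM in the IRF2KO library and 1.71 TPM in the WT library, and 2 of 5 members were higher by 1 log2 unit, where 0.663% of genes were. Under LPS 2 of 5 were higher in IRF2KO, where 0.548% of genes were. Replicate error is unknown for all of these values.

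**Figure D5:**
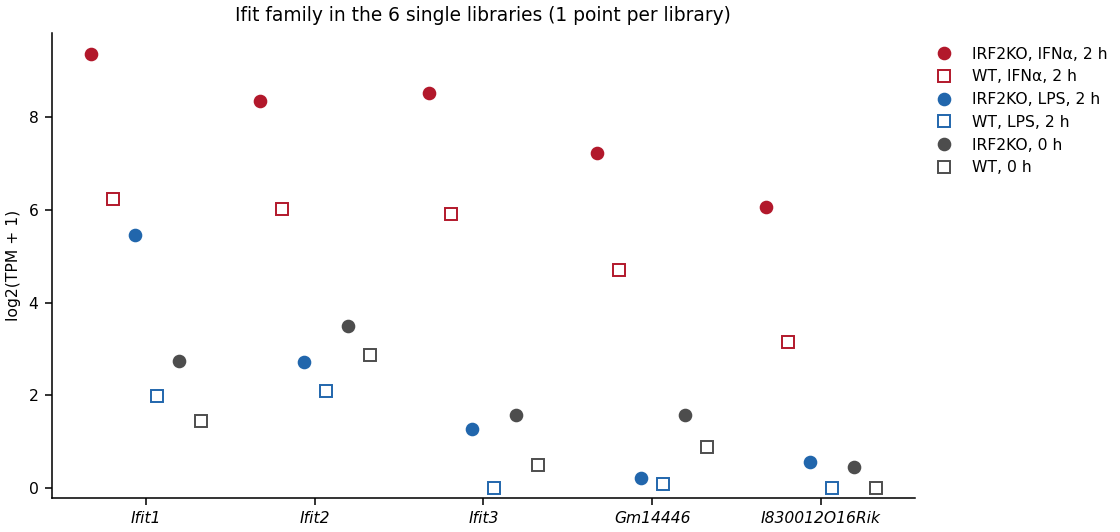
Level of each member as log2(TPM + 1) in the 6 single libraries, filled points for IRF2KO and open squares for WT, coloured by treatment. Under IFNα the IRF2KO point lies above the WT point for all 5 genes; under LPS Ifit1 alone is high, at 42.74 TPM in IRF2KO.

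Across the replicated libraries between 10911 and 11101 genes reached 1 TPM, and replicates correlated at r of 0.974 to 0.988 across genes, which are not independent replicates. Depth is unknown. Of 12 listed dendritic cell markers 9 or 10 reached 1 TPM in every group, with sums of 4739 to 6795 TPM, while Flt3 was at 0 and Ccr7 never above 0.38 TPM. Macrophage and monocyte markers summed to 1548 to 2575 TPM, and lymphocyte and fibroblast markers to at most 0.46 and 0.36 TPM. Their part in the results was not tested.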

How the data were processed

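RNA was sequenced from 30 libraries labelled as the DC3.2 line: 24 in 12 groups of 2, titled DC32R, and 6 single ones, titled Dc3.2. The authors deposited 1 table of TPM values, transcript abundance per unit length scaled to a fixed total for each library, used as given. The submitters' processing notes name bcl2fastq 2.20, Bowtie 0.12.2 and RSEM, and the builds mm10 and GRCm38 with no role. TPM keeps no counts, so depth and its precision are unknown and no count model was used. The table has 41346 entries for 31427 symbols. Entries of a symbol were summed within the 24 and, separately, within the 6 libraries. No 2 libraries held identical values.

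A model of 12 group means with a trended prior was fitted to log2(TPM + 1) in limma 3.58.1 (R 4.3.3). Genes had to reach 1 TPM in 2 or more of the 24 libraries, which left 11842, and the residual degrees of freedom were 12. Tests are two-sided, with Benjamini-Hochberg adjustment over all tested genes within each of 36 comparisons and a call at an adjusted p under 0.05. All 5 members are named in every comparison. From each gene list up to 4 called genes with the smallest p are named, with the neighbours that passed the filter and, where interferon factors are described, Irf1, Irf2, Irf7, Irf9 and Stat2 whether called or not. The 4 non-members nearest to each member by Pearson r of the group means are named too. The 5 members, the lists and the tests were chosen with earlier results of these data known. Gene positions and transcripts come from RefSeq and GENCODE annotation, and promoter sequences from RefSeq. The fits were tested on simulated data. Python 3.11.15, numpy 2.4.6, pandas 2.3.3, matplotlib 3.10.9 and Biopython 1.88 were also used.

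Replicate numbers carry 1 date-like code each in the sample titles. They were used to pair the samples only in the fit with a block. The main fit and the other alternatives leave this pairing out. Of 66 group pairs, 56 had deviations from their group means that correlated by more than 0.1, with a median of 0.233 and a range of −0.160 to 0.481. A fit with the number as a block has 11 residual degrees of freedom. The pseudocount was also set to 0.1 and to 5, and the filter was dropped or replaced by a mean of 5 TPM or more over the 24 libraries. Further alternatives were median-ratio and quantile scaling, robust variances, summed paralogue pairs (Ifit3 with I830012O16Rik, Ifit1 with Gm14446), and leaving out 1 library at a time.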

Additional observations from a re-analysis of the deposited data

Results flagged for a closer look

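The response to IFNα differed between IRF2KO and WT cells for all 5 genes by the interaction test. The excess in IRF2KO cells was 2.53 for Ifit1, 2.15 for Ifit2, 2.04 for Ifit3, 2.62 for Gm14446 and 2.23 for I830012O16Rik on the log2(TPM + 1) scale. With a pseudocount of 0.1 none of the 5 was called. The excess was then 1.37, 2.22, 1.63, 2.24 and 1.89 in the same order of genes. Its size thus depends on the pseudocount, as media levels were close to 0 for every member but Ifit2. Without 1 of the 8 libraries involved, all 8 fits kept the calls of Ifit1 and Gm14446, 7 that of I830012O16Rik, and 2 those of Ifit2 and of Ifit3 (adjusted p up to 0.123 and 0.286, limma).

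The IFNα response also differed between DKO and WT cells for Gm14446, by 1.73, and for I830012O16Rik, by 1.82. Neither was called with a pseudocount of 0.1, at 1.72 and 2.05. Of 8 fits without 1 library, 1 kept the call of Gm14446 and 0 that of I830012O16Rik. With each paralogue pair summed to 1 entry the same difference was 1.65 for Gm14446 with Ifit1 (adjusted p = 0.194, limma) and 1.31 for I830012O16Rik with Ifit3 (adjusted p = 0.565, limma), and neither was called.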

How the results depend on the processing

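Member calls under IFNα against media (20), under IFNγ against IFNα (19), between mutants and WT in media (0) and for the effect of IRF1 with and without IRF2 (0) changed by less than 1.5 times under every alternative. A pseudocount of 0.1 lowered the calls of mutants against WT to 4 of 15 under IFNα (13 with a pseudocount of 1) and to 1 of 15 under IFNγ (4). It lowered those of DKO against the single mutants to 7 (12) and of changed interferon responses to 0 (7), and raised those of IFNγ against media to 11 of 20 (7). A pseudocount of 5 gave 4 of 20 for IFNγ against media, and summed paralogue pairs gave 11, where each called pair counts for both of its genes; counted once, 6 of 12 entries were called. In the single libraries 26 of 35 differences reached 1 log2 unit at a pseudocount of 0.1 and 17 at 5, against 21. The cause was not tested. Counts over all tested genes under these alternatives are not given here. No called difference changed sign. A mean of at least 5 TPM left I830012O16Rik untested.

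With the replicate number as a block, member calls were 10 of 20 for IFNγ against media (7 without it), 5 of 15 for mutants against WT under IFNγ (4) and 8 of 30 for changed interferon responses (7). The 5 differences it added stand beside their values, and it changed no other member call. Over all tested genes, calls for IFNγ against media rose too, from 92 to 196 in DKO and 134 to 243 in IRF2KO cells. In IRF1KO and WT cells they rose from 137 to 209 and 149 to 229. Those for mutants against WT under IFNγ rose from 155 to 362 (DKO), 95 to 259 (IRF2KO) and 28 to 42 (IRF1KO). Those for the IFNγ response of IRF2KO minus that of WT rose from 4 to 7. The gain in calls was thus not particular to the family. Leaving out 1 library gave 19 to 20 calls for IFNα against media, 6 to 10 for IFNγ against media, 18 to 19 for IFNγ against IFNα, 8 to 14 for mutants against WT under IFNα, 3 to 6 under IFNγ, 9 to 13 for DKO against single mutants and 2 to 8 for changed responses. The 8 calls of mutants against WT under IFNα came without WT IFNα replicate 1 or 2. Changed responses fell to 2 without WT IFNα replicate 1, to 3 without WT IFNα replicate 2 or either WT media library, and to 4 without either DKO IFNα library or DKO media replicate 2. Median-ratio scaling moved the median of all genes by −0.12 for DKO minus IRF2KO in media, −0.13 for the IFNα response of IRF2KO minus that of WT and −0.11 for the effect of IRF1 in media, and ended no member call. Refits without 1 library numbered 900 over all member differences, called or not, and a call was lost in 71 of them. Differences that were not called had no call to lose, so 71 of 900 is not the rate of loss among calls.

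Low TPM values rest on an unknown number of reads, which limits all statements on 4 of the 5 genes in media and under IFNγ.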
